A study of Mus musculus with 6 samples.

Results

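The genes of glycolysis and of the response to low oxygen were followed in inguinal lymph nodes of mice given naringin, a bitter flavonoid of citrus fruit, in their food. The set held 34 genes of the 50559 in the deposited table, picked by symbol with earlier results of these data known. It comprised 2 glucose transporters, 14 glycolytic enzymes, 3 genes of lactate handling and 3 regulators of flux. The rest were 2 alpha subunits of the hypoxia-inducible factors (HIF), 2 oxygen sensors and 8 HIF targets outside glycolysis. All 34 were in the table, and all 34 passed the filter on low values, a mean over the 6 libraries of 1 CPM or more (counts per 1000000 reads assigned to genes). RNA sequencing compared 3 Naringin samples, from animals given 200 mg/kg of the compound each day, with 3 samples labelled Control. The sources used here do not give strain, sex, age, length of feeding, the control diet or whether nodes were pooled. The labels also do not tie the samples to separate animals. P-values therefore measure the spread between these samples alone, which may be technical.

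Glycolysis splits glucose into pyruvate in the cytosol, and lactate dehydrogenase turns pyruvate into lactate when it is not burned in mitochondria. Lymphocytes raise this pathway when they are activated and divide. When oxygen is plentiful, EGLN prolyl hydroxylases mark HIF alpha subunits for destruction through VHL. When oxygen is scarce the subunits persist, pair with ARNT and bind short DNA elements next to genes for glucose uptake, glycolysis, vessel growth and mitophagy. Much of HIF regulation acts on the protein, so the transcripts of the factors themselves need not follow it.

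The core of the HIF element reads ACGTG or GCGTG. It was looked up on both strands of RefSeq promoter windows of build GRCm38.p6, which run from 250 bases before to 50 after a gene's start. A window was held for 30 of the 34 genes, and those of 28 contained a core, or 93.3%. Of the 27025 genes with such windows, measured here or not, 46.7% had a core. ACGTG alone was present in 21 of the 30 genes and in 21.8% of the 27025. Genes can have several windows: counted by window, a core was in 36 of 44 (81.8%) for the set and in 43.8% of 32851. The median GC content of the windows was 62.2% for the set and 52.7% for all promoters, and no allowance was made for it. Cores stood in 12 of 14 enzyme genes (Gpi1 and Tpi1 had none) and in 6 of the 6 HIF targets with a window. A core is a match of letters and not a binding site. ACGTG overlaps its own reverse complement in the palindrome CACGTG, where both strands are counted. Stretches of 4 promoters are shown, with cores on either strand in capitals and positions counted from the start of the gene. Hk1 was the gene whose groups did not overlap, Adm had the smallest p, Ankrd37 had the largest positive difference among the HIF targets, and Ldha makes the main lactate-forming subunit.
Hk1, chr10:62340422-62340461, minus strand, positions -40 to -1: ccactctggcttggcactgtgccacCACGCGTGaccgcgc
Ldha, chr7:46845731-46845799, plus strand, positions -73 to -5: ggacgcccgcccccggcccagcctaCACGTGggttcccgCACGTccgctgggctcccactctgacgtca
Ankrd37, chr8:45999973-46000030, minus strand, positions -180 to -123: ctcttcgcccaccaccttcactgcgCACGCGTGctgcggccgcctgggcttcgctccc
Adm, chr7:110627542-110627632, plus strand, positions -115 to -25: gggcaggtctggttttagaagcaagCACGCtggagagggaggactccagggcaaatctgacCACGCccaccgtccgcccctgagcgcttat
In the Hk1 and Ankrd37 stretches, GCGTG was read once on each strand and the reads overlap. The Ldha stretch held ACGTG 3 times, and the Adm stretch held GCGTG 2 times, both on the strand opposite to the gene. The full windows of Hk1, Ldha and Ankrd37 held 5, 7 and 4 cores, so some lie outside the stretches shown. A second Hk1 window held 0 cores and a second Ldha window 2.

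Reads assigned to genes numbered 13074180 to 14976422 per library, so 1 read was worth 0.0668 to 0.0765 CPM. The nodes expressed lymphocyte markers: those of B cells summed to 2797 to 3523 CPM with naringin and 2765 to 3061 CPM in Control, and those of T cells to 1313 to 1715 CPM and 1629 to 1869 CPM. All 6 tested B cell markers had a higher Naringin mean, against 56.7% of all genes tested. All 6 tested T cell markers had a lower one, against 43.3%. Of these markers, only Cd4 had groups that did not overlap, with naringin below Control (2.29% of all genes tested). The T cell gene Trbc2 and the muscle genes Myh4 and Mb were at 0 in every library. Control 3 stood apart from the other 5 libraries: in pairwise comparisons of read counts its chi-square per degree of freedom was 39.3 to 61.6, against 7.68 to 27.7 for pairs without it. Results are therefore given with and without it where it matters.

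None of the 34 genes differed between the groups past the threshold. With limma on log2(CPM + 1) and Benjamini-Hochberg adjustment over the 14873 genes tested, 0 of 34 had an adjusted p under 0.05, against 0% of all genes in either direction, and 0.9996 was the smallest adjusted value. Before adjustment, 0 of 34 had p under 0.05, against 1.43% of all genes. The edgeR and DESeq2 tests on reads recovered from the CPM values likewise called 0 of the 34, with 0 at an unadjusted p under 0.05, while over all genes they called 0 and 3. The Naringin mean was higher in 19 and lower in 15 of the 34, against 56.7% higher and 43.3% lower among all genes. The median log2 fold (Naringin minus Control) was 0.04, and 0.02 over all genes. The 3 Naringin values lay below all 3 Control values in 1 gene, Hk1 (2.29% of all genes), and above them in 0 (3.36%, or 5.65% for both directions).

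**Figure D1:**
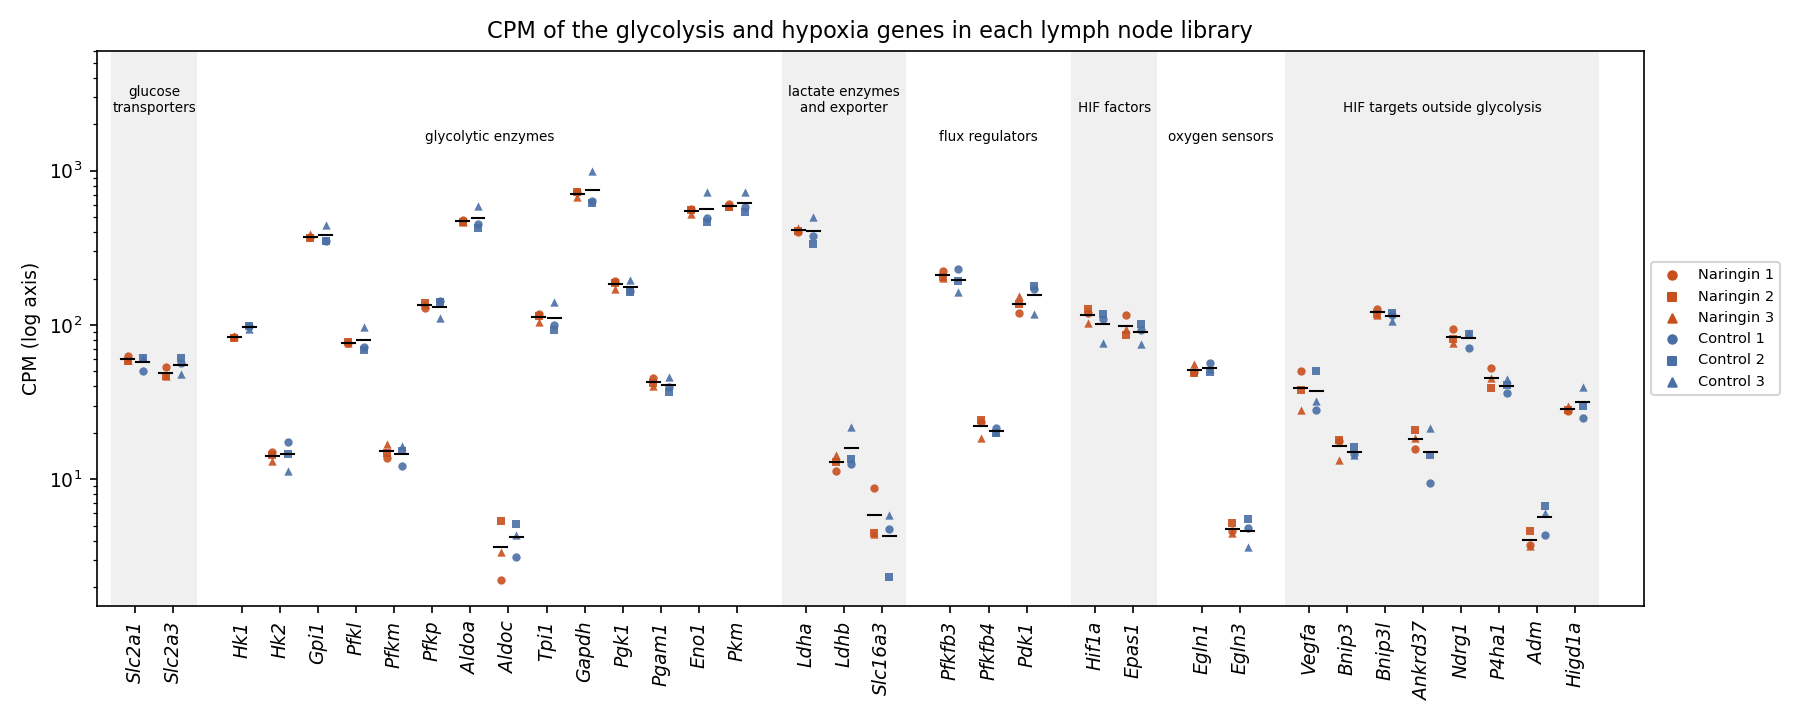
CPM of the 34 genes on a log axis, by role, with 1 point per library (Naringin orange, Control blue) and the group mean as a bar. The groups overlap in all but Hk1, and Control 3 (blue triangles) is the highest point in 13 genes.

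Between these samples, the 95% intervals limit how large an unseen difference could be on the log2(CPM + 1) scale. They rest on the spread between these samples, which may be technical, and set no limit for other animals. The 95% interval of the fold stayed within 2-fold in either direction for 33 of 34 genes, all but Slc16a3, and within 1.5-fold for 26. For the enzymes these numbers were 14 and 13 of 14, and for the HIF targets 8 and 5 of 8. The scale adds 1 to each CPM and so understates changes of genes at a few CPM, such as Adm, Slc16a3, Egln3 and Aldoc. Whether such genes stay within 2-fold in CPM itself was not worked out.

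**Figure D2:**
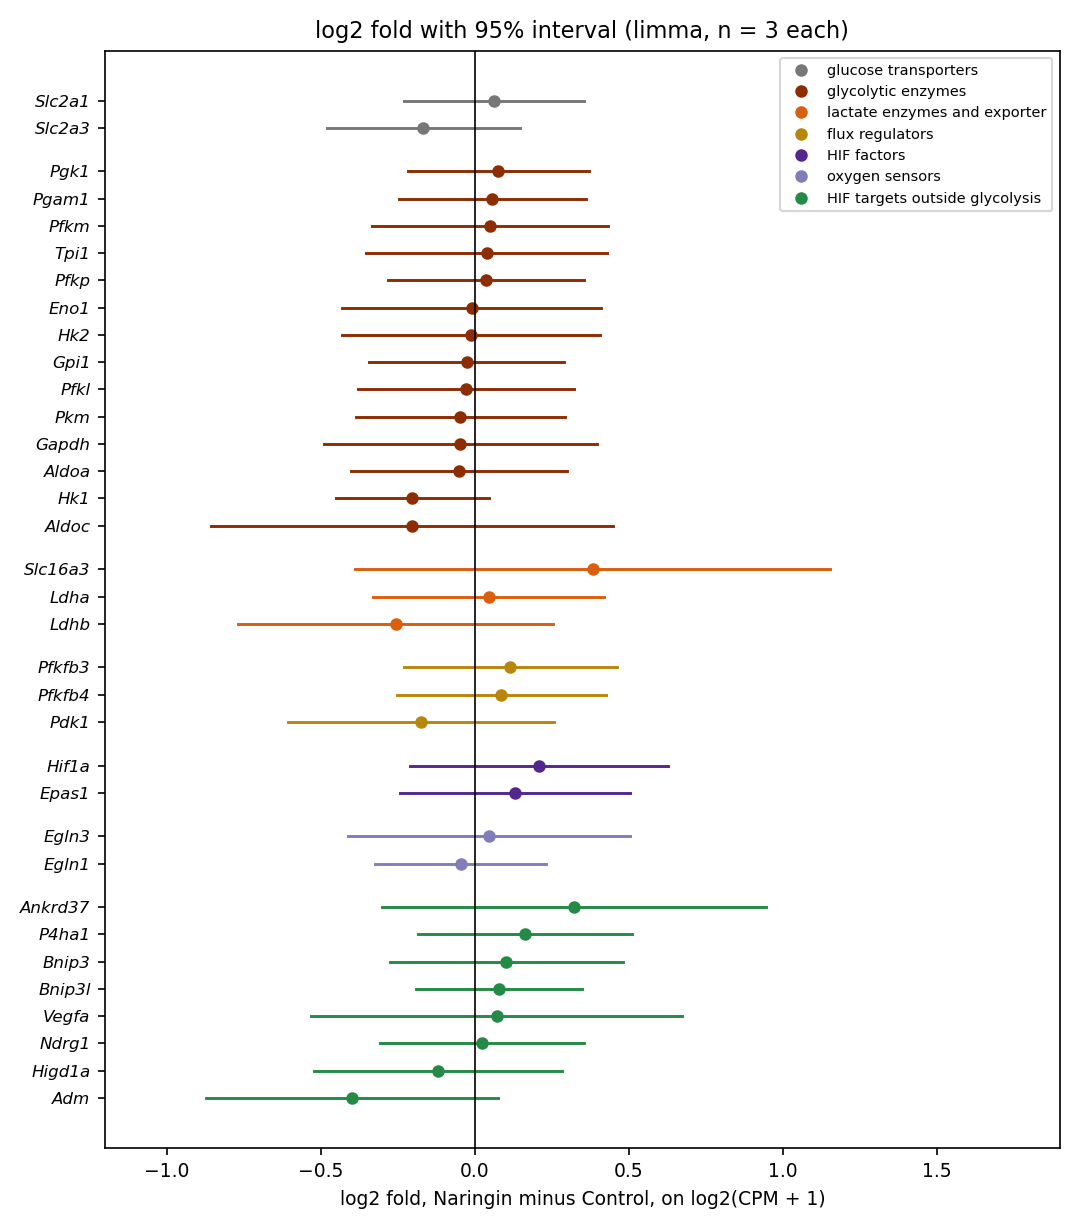
Log2 fold (Naringin minus Control) of each gene on the log2(CPM + 1) scale, with its 95% interval from limma, 3 libraries a group, coloured by role. Every interval includes 0, and the widest is that of Slc16a3, from -0.39 to 1.15.

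Glucose enters lymphocytes mainly through the transporters GLUT1 (Slc2a1) and GLUT3 (Slc2a3). Slc2a3 read 53.5, 46.7 and 46.9 CPM in the Naringin libraries, against 57.1, 61.2 and 47.9 CPM in the Control libraries. Control 3 lay among the Naringin values, so the groups overlapped. Its log2 fold was -0.17 ± 0.14 (SE, limma unadjusted p = 0.257). Slc2a1 averaged 60.02 ± 2.73 CPM and 57.6 ± 6.05 CPM (SD, n = 3 each), a log2 fold of 0.06.

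Of the 14 glycolytic enzymes, 5 had a higher and 9 a lower Naringin mean. Their log2 folds ran from -0.20 to 0.08 around a median of -0.02. Hexokinase traps glucose in the cell as glucose 6-phosphate. Hk1, its constitutive form, read 83.8, 82.3 and 85.2 CPM with naringin, against 97.9, 97.8 and 93.9 CPM in Control. The groups did not overlap, and each was tight. The log2 fold was -0.20 ± 0.11 (95% interval -0.45 to 0.05, limma unadjusted p = 0.0994, adjusted p = 0.9996), so it did not pass. In whole tissue, fewer cells that express a gene and less RNA of it per cell cannot be told apart. Hk2, the inducible form and a HIF target, averaged 14.2 ± 0.927 CPM and 14.5 ± 3.08 CPM.

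Gapdh, which oxidises glyceraldehyde 3-phosphate, was the enzyme with the highest mean CPM. Its values were 727.4, 728 and 674 CPM with naringin, against 639, 621 and 992 CPM in Control. Naringin lay above Control 1 and Control 2 and below Control 3. Limma gave a log2 fold of -0.05 ± 0.19, and 0.17 without Control 3. Pkm, the pyruvate kinase of proliferating tissue and muscle, read 608, 581 and 590.05 CPM against 582, 539 and 732 CPM. Control 3 was again the highest library and Control 2 the lowest. Its log2 fold of -0.05 ± 0.15 became 0.08 without Control 3. Eno1, Aldoa, Tpi1, Pfkl and Gpi1 had the same order, with Control 3 highest and Control 2 lowest. Phosphofructokinase Pfkp was the other way round, averaging 134 ± 5.45 CPM with naringin and 132 ± 18.1 CPM in Control, where Control 3 was the lowest library at 111 CPM. Mouse Gapdh, Pgk1, Ldha, Eno1 and other glycolytic genes have near-identical processed copies in the genome. The sources used here do not say how reads that match several places were counted, and the levels of these genes are uncertain.

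Lactate dehydrogenase is built from A subunits (Ldha), which favour lactate formation, and B subunits (Ldhb). Ldhb read 11.3, 13.0 and 14.4 CPM with naringin, against 12.5, 13.5 and 21.9 CPM in Control. All but Control 3 lay within a narrow band. The groups differed by -0.26 ± 0.22 on the log2 scale (limma unadjusted p = 0.281), and -0.02 without Control 3. Ldha, given in full because its promoter is shown above, read 398, 409 and 427 CPM against 380.3, 335 and 498 CPM. Its groups overlapped only through Control 3, and the log2 fold of 0.05 ± 0.16 was 0.20 without that library. Slc16a3 (MCT4), the lactate exporter, averaged 5.87 ± 2.46 CPM and 4.29 ± 1.79 CPM, the least precise of the set.

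Flux is tuned by PFKFB enzymes, whose product activates phosphofructokinase, and by pyruvate dehydrogenase kinases, which keep pyruvate out of mitochondria. Pdk1, a HIF target, read 119, 137 and 154 CPM with naringin, against 171, 180.0 and 117 CPM in Control. Control 1 and Control 2 lay above all Naringin values and Control 3 below them. This gave a log2 fold of -0.17 ± 0.19 (limma unadjusted p = 0.382), and -0.37 without Control 3. Pfkfb3 averaged 209.8 ± 11.4 CPM and 195 ± 33.6 CPM, and Pfkfb4 22.0 ± 3.10 CPM and 20.6 ± 0.835 CPM.

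Hif1a, which encodes the HIF subunit present in most cells, read 119, 126 and 103 CPM with naringin, against 109.8, 119 and 76.5 CPM in Control. Control 3 was the lowest library. The log2 fold of 0.21 ± 0.18 (limma unadjusted p = 0.284) was 0.02 without it. Epas1 (HIF-2 alpha), known mainly from endothelium and macrophages, averaged 98.4 ± 15.3 CPM and 89.7 ± 13.1 CPM, with Control 3 lowest as well. The oxygen sensor Egln1 read 49.8, 48.6 and 55.5 CPM against 56.8, 49.9 and 52.2 CPM. The ranges were nearly the same, and the log2 fold was -0.05 ± 0.12 (limma unadjusted p = 0.719). Egln3, a sensor that HIF itself induces, averaged 4.77 ± 0.385 CPM and 4.64 ± 0.955 CPM.

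Of the 8 HIF targets outside glycolysis, 6 had a higher and 2 a lower Naringin mean, and the median log2 fold was 0.07. Adm encodes adrenomedullin, a vasodilator peptide that also acts on lymphatic vessels. It read 3.75, 4.61 and 3.71 CPM with naringin, against 4.36, 6.65 and 6.01 CPM in Control. Only Naringin 2 lay above the lowest Control value. The log2 fold was -0.40 ± 0.21 (95% interval -0.87 to 0.08, limma unadjusted p = 0.0888, adjusted p = 0.9996), the smallest p of the set.

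The mitophagy receptor Bnip3l (NIX) was the target with the highest mean CPM. It read 127, 118 and 117 CPM with naringin, against 116, 120.3 and 106 CPM in Control. The ranges overlapped and the log2 fold was 0.08 ± 0.12. Ndrg1, a stress-induced gene, read 93.9, 80.7 and 76.3 CPM against 70.5, 87.5 and 89.2 CPM. Naringin 1 was highest and Control 1 lowest, and the log2 fold of 0.02 ± 0.14 turned to -0.06 without Naringin 1 and to -0.08 without Control 1. Under upper-quartile scaling it was -0.02.

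Ankrd37, a small ankyrin-repeat gene used as a HIF reporter and given in full because its promoter is shown, read 15.6, 20.8 and 18.4 CPM with naringin, against 9.41, 14.3 and 21.6 CPM in Control. The Control values spanned the Naringin ones. The log2 fold was 0.32 (95% interval -0.30 to 0.94), and 0.60 without Control 3. The angiogenic factor Vegfa covered almost the same range in both groups, 28.3 to 50.5 CPM with naringin and 28.2 to 50.6 CPM in Control. Bnip3, P4ha1 (a collagen prolyl hydroxylase) and Higd1a (a mitochondrial protein) had log2 folds of 0.10, 0.16 and -0.12, each with overlapping groups. Higd1a was highest in Control 3, at 39.8 CPM, and its log2 fold was 0.06 without that library.

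Set side by side, the enzymes' median log2 fold minus that of the HIF targets was -0.09. Without Control 3 it was 0.04. The 14 enzymes summed to 3428, 3369.7 and 3286 CPM with naringin, against 3169.7, 3042 and 4207 CPM in Control. The 8 targets summed to 389, 347 and 332 CPM, against 304, 366 and 354 CPM. The sum of enzymes over that of targets was 8.82, 9.72 and 9.91 with naringin and 10.4, 8.31 and 11.9 in Control, so the Naringin libraries lay within the Control range. With all libraries kept, neither group of genes thus separated the 2 conditions. For the enzyme sums this rested on Control 3, since every Naringin sum lay above those of Control 1 and Control 2. The target sums overlapped without Control 3 as well.

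**Figure D3:**
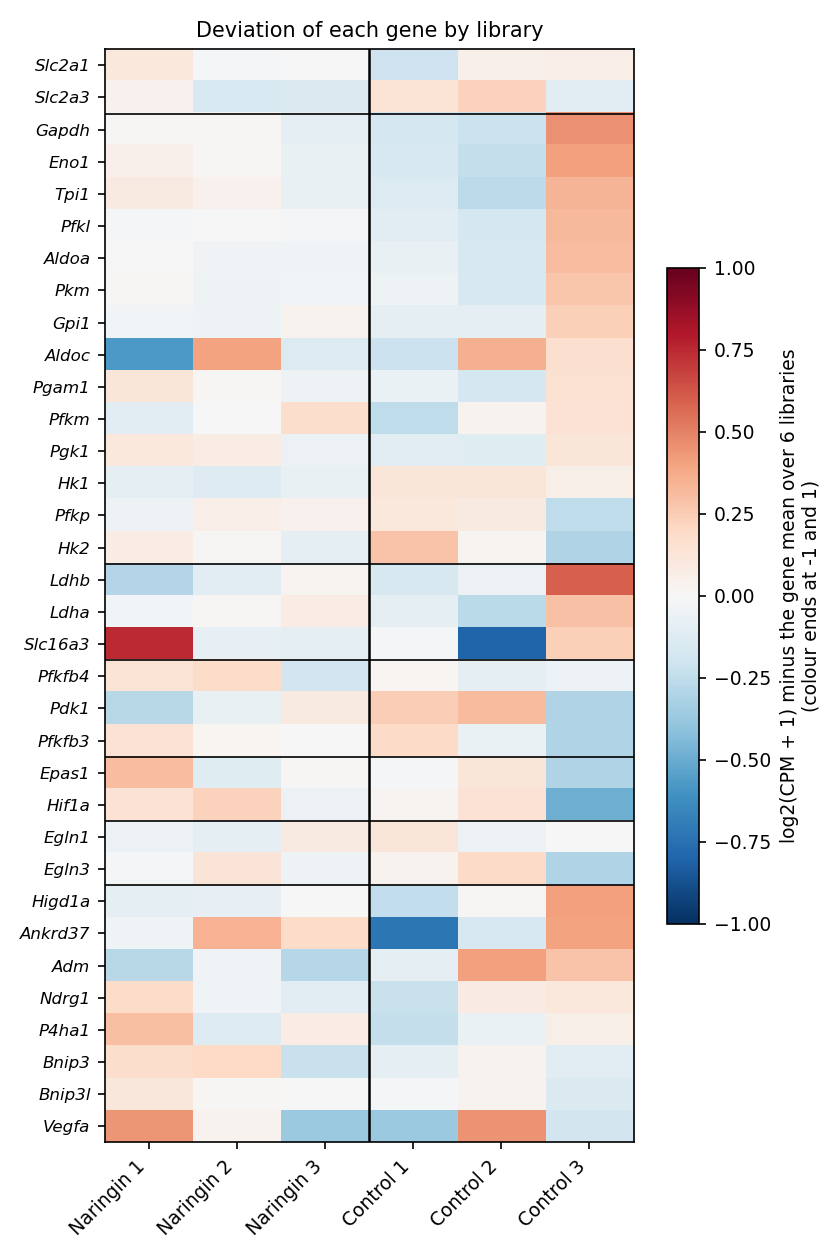
Deviation of log2(CPM + 1) from the gene's mean over the 6 libraries, with genes in rows by role and libraries in columns, Naringin left of Control. Red is above and blue below the mean: Control 3 is red for most enzymes and blue for Hif1a, Epas1, Pdk1, Pfkfb3, Pfkp and Hk2.

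The pattern that the enzymes did share ran along single libraries. Their median deviation from the gene means was 0.01, 0.01 and -0.06 with naringin, against -0.11, -0.14 and 0.20 in Control. Control 3 was the highest of the 6 libraries in 9 of 14 enzymes and in 13 of all 34 genes (38.2%), against 24.0% of all genes tested. It was the lowest in 8 of the 34 (23.5%), against 36.6% of all genes. Those 8 were Hk2, Pfkp, Pfkfb3, Pdk1, Hif1a, Epas1, Egln3 and Bnip3l. Control 2 was the lowest library in 9 of 14 enzymes, against 12.1% of all genes. The HIF targets had another order, with medians of 0.14, -0.01 and -0.06 with naringin, against -0.23, 0.04 and 0.08 in Control. Control 1 was the lowest library in 5 of 8, against 16.1% of all genes.

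Other quantities moved with Control 3. A list of 10 cytosolic ribosomal protein genes summed to 19934, 21942 and 23003 CPM with naringin, against 20695, 19971 and 28423 CPM in Control. Of the 10, 9 had a lower Naringin mean, against 43.3% of all genes, with Control 3 included. By their sum, Naringin 2 and Naringin 3 lay above Control 1 and Control 2, and Naringin 1 lay below both. The genes of the set that were highest in Control 3 had a median exon length of 3040 bases, those lowest in it 5932, and the rest 4114. Over all genes the corresponding medians were 2694 for genes highest in Control 3 and 6051 for genes lowest in it, with 4247 for all. After a correction for gene length in each library, added after seeing the data, the enzymes' median deviation in Control 3 was 0.24, still the highest of the 6. For the HIF targets, Control 3 became the highest library at 0.11 and Naringin 1 stood at 0.07, with Control 1 still lowest at -0.19. Markers of macrophages summed to 2228.5, 1488 and 767 CPM with naringin, against 969, 1146 and 1970.3 CPM in Control, and those of neutrophils to 216, 117 and 40.3 CPM, against 38.7, 44.3 and 224 CPM. These sums were therefore high in Naringin 1 as well as in Control 3. The part of these quantities in the enzymes' pattern was not tested.

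**Figure D4:**
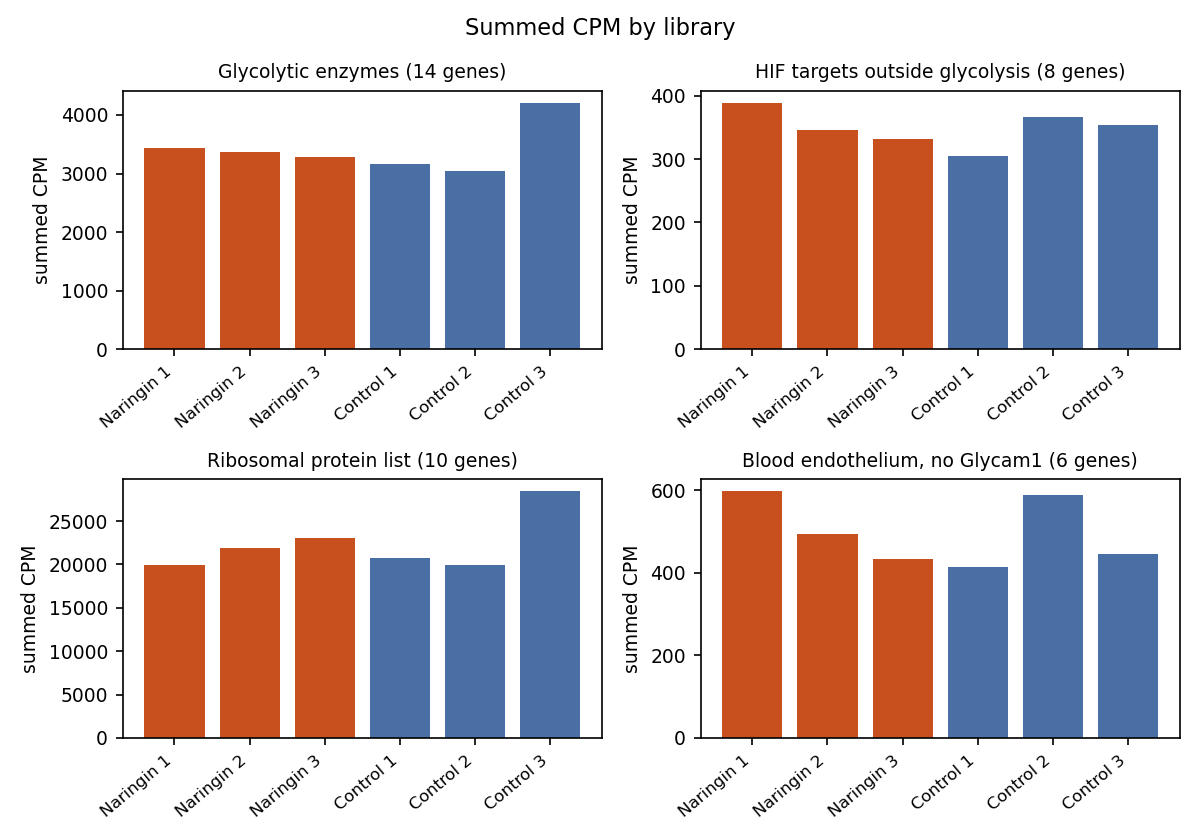
Summed CPM in each library (bars from 0, Naringin left of Control) of 14 glycolytic enzymes, 8 HIF targets, 10 ribosomal protein genes and 6 blood endothelium markers. The enzymes and the ribosomal protein genes are both highest in Control 3, at 4207 and 28423 CPM, while the HIF targets and the endothelium markers are both highest in Naringin 1 and lowest in Control 1.

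Naringin 1 and Control 1, the highest and the lowest library for the summed CPM of the HIF targets, were so for the sum of blood vessel genes too. The markers of blood endothelium, without the venule mucin Glycam1 (left out after its values were seen), summed to 598, 495 and 434 CPM with naringin, against 415, 589 and 446 CPM in Control. All 6 of these markers had a higher Naringin mean, against 56.7% of all genes. Their log2 folds ran from 0.03 (Pecam1) to 0.37 (Madcam1), each with overlapping groups. With Glycam1, the sums were 955, 868 and 916 CPM, against 574, 853 and 706 CPM. Kdr, the VEGF receptor of endothelium, read 113, 71.9 and 42.4 CPM, against 40.6, 80.1 and 67.6 CPM. Of the 6 markers, only Kdr and Madcam1 were highest in Naringin 1 and lowest in Control 1. Pecam1, the marker with the most reads of the 6, read 364, 335 and 323 CPM, against 305, 399 and 302 CPM, highest in Control 2 and lowest in Control 3. The part of these markers in the HIF targets' pattern was not tested.

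Leaving out Control 3 changed the directions of the enzymes. Of the 14 enzymes, 10 then had a higher Naringin mean, with a median log2 fold of 0.11, against 50.3% of all genes higher. Of the targets, 6 of 8 were again higher, with Higd1a in place of Vegfa, and the median was 0.07. The sign of the log2 fold turned in 11 of the 34 genes, among them 7 enzymes: Gpi1, Pfkl, Aldoa, Gapdh, Eno1 and Pkm to a higher and Pfkp to a lower Naringin mean. The other 4 were Higd1a, now higher, and Pfkfb3, Egln3 and Vegfa, now lower. Of the 34 genes, 7 had an unadjusted limma p under 0.05, against 9.35% of all genes: Tpi1 (log2 fold 0.22), Eno1 (0.19), Ldha (0.20) and Ankrd37 (0.60) with higher means (2.68% of all genes), and Slc2a3 (-0.27), Hk1 (-0.22) and Pdk1 (-0.37) with lower means (6.68%). After adjustment 0 passed, against 0.00672% of all genes, and the smallest limma adjusted p was 0.415. With 2 Control libraries left, that fit rests on little. Without Control 1, and likewise without Naringin 1, the targets were at 4 of 8 higher.

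The enzymes' spread within the Control group rested largely on Control 3, as did that over all genes. The median coefficient of variation over the 34 genes was 6.86% with naringin and 17.7% in Control, and it was larger in Control for 27 genes. Over all genes the medians were 11.0% and 18.6%, larger in Control for 66.2%. Among the enzymes it was 4.29% with naringin and 17.3% in Control, larger in Control for 13 of 14. For the HIF targets these values were 13.3% and 16.7%, larger in Control for 6 of 8. Between Control 1 and Control 2 alone the median was 6.29% over the 34 genes, and the coefficient was larger than with naringin for 17. Over all genes the median was 7.39%, and the coefficient was larger for 5150 of 14873. The median was 4.04% for the enzymes and 14.05% for the HIF targets. A coefficient from 2 libraries and one from 3 are not on equal terms, and no test of the spread was made.

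Levels per kilobase of exon, from the union of annotated exons, ranked Gapdh and Aldoa first. Gapdh stood at 177 CPM per kilobase over the 6 libraries, Aldoa at 165, Ldha at 123, Pkm at 121 and Eno1 at 103. Bnip3l led the HIF targets at 30.4, Hif1a stood at 18.5 and Epas1 at 16.8, and Slc16a3 came last at 0.955. An exon union includes exons that a node may not use, so these levels are approximate.

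On the same scale the group means of the isoenzyme shares had the same order in both groups, though single libraries did not always. Ldha made up 93.8 ± 0.488% of lactate dehydrogenase transcripts with naringin and 92.4 ± 1.02% in Control (SD, n = 3 each), and Aldoa 99.3 ± 0.304% and 99.2 ± 0.248% of Aldoa plus Aldoc. Of the phosphofructokinases, Pfkl held 44.2 ± 1.29% and 45.3 ± 6.35%, Pfkp 38.5 ± 0.604% and 37.9 ± 7.13%, and Pfkm 17.4 ± 1.36% and 16.8 ± 1.85%. In Control 2, Pfkp was above Pfkl (41.5% and 40.6%). Before division by exon length, Pfkp was also the higher, at a mean of 133 CPM over all libraries against 78.1 CPM for Pfkl. Slc2a1 held 71.7 ± 0.686% and 68.2 ± 4.01% of the transporter pair, and Hif1a 52.9 ± 4.71% and 51.5 ± 2.25% of the HIF alpha pair. Hif1a was the smaller part of that pair in Naringin 1 (49.4%) and Control 3 (48.9%).

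In the hexokinase family the shares were given by library because the groups of Hk1 did not overlap in CPM. Hk1 held 51.4%, 57.9% and 60.4% of the transcripts of Hk1, Hk2 and Hk3 with naringin, against 63.9%, 65.2% and 61.7% in Control. The groups did not overlap, but these shares come from the same CPM values, with no figure over all genes to set beside them. Hk3, a form known from myeloid cells and outside the set, held 35.4%, 27.7% and 26.3%, against 19.8%, 20.9% and 27.6%, with Control 3 among the Naringin values. Its CPM was 24.9, 17.03 and 16.04, against 13.1, 13.5 and 18.1. The macrophage and neutrophil sums given above were highest in Naringin 1 and Control 3, and their part in the Hk3 share was not tested. These shares were looked at after the values of Hk1 were seen.

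A wider list of 67 genes of the same pathways, 66 of them in the table and 61 above the filter, was read beside the 34. It was chosen with earlier results of these data known, so its counts cannot show an excess over all genes. Of the 61, 47 had a higher and 14 a lower Naringin mean (77.0% higher, against 56.7% of all genes), with a median log2 fold of 0.05. Without Control 3 the numbers were 34 and 27. By role, the mean was higher in 14 of 19 other isoenzymes and branch genes, 12 of 14 pyruvate and lactate genes, 4 of 6 HIF pathway regulators and 17 of 22 other HIF targets. None passed the limma adjusted threshold. At an unadjusted p under 0.05 there were 4 with a higher mean (0.975% of all genes) and 0 with a lower mean (0.457%). Without Control 3 there were 9 and 0 (14.8% of the 61 in all), against 2.68% and 6.68% of all genes.

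Those 4 were known from earlier results on these libraries, and each is also controlled by signals other than HIF. Pdk4, a starvation-induced pyruvate dehydrogenase kinase, read 9.11, 4.81 and 7.98 CPM with naringin, against 2.83, 4.70 and 2.21 CPM in Control. The groups came close at Naringin 2 and Control 2 without overlapping, and the log2 fold was 0.97 ± 0.29 (limma unadjusted p = 0.0101). Pdk1 had its mean on the other side. Per exon length, Pdk4 held 7.26%, 3.71% and 6.06% of the transcripts of the 4 PDK genes, against 2.01%, 3.33% and 1.89%.

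Ddit4 (REDD1), an mTOR inhibitor, read 165, 214 and 213 CPM with naringin, against 92.1, 108 and 147 CPM in Control, without overlap. Its log2 fold was 0.78 ± 0.20 (limma unadjusted p = 0.00371). The chemokine receptor Cxcr4 read 187, 194 and 195 CPM against 89.0, 95.1 and 165 CPM. Control 3 was the nearest to the Naringin libraries, and the log2 fold of 0.77 ± 0.22 (limma unadjusted p = 0.00833) was 1.05 without it.

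Angptl4, a lipoprotein lipase inhibitor induced by HIF and by PPAR factors, read 76.2, 36.8 and 23.1 CPM with naringin, against 19.9, 11.6 and 23.7 CPM in Control. Naringin 3 lay within the Control range and Naringin 1 far above it. The log2 fold was 1.15 ± 0.41 (limma unadjusted p = 0.0236), and 0.69 without Naringin 1.

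At the other end of the wider list stood Vhl, whose product marks HIF alpha for destruction, and the enolases Eno3 and Eno2, with log2 folds of -0.20, -0.19 and -0.23 and overlapping groups. Besides Pdk4, Ddit4 and Cxcr4, which were known beforehand, 2 genes had all Naringin values above the highest Control value. That makes 5 of 61 (3.36% of all genes). The 2 are named after their values were seen. These were Adpgk, an ADP-dependent glucokinase, at 64.1 ± 2.33 CPM and 56.9 ± 2.74 CPM, and Dld, a subunit of pyruvate dehydrogenase, at 82.9 ± 3.69 CPM and 74.5 ± 4.31 CPM. All lay below the lowest Control value in 1 gene (2.29% of all genes), the mitochondrial pyruvate carrier subunit Mpc1, at 16.8 ± 0.117 CPM and 18.6 ± 2.43 CPM. Differences in these 3 were small, with log2 folds of 0.17, 0.15 and -0.13.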

How the data were processed

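The authors deposited 1 table of CPM per gene for 6 libraries. Per the submitters' processing notes, Trimmomatic 0.39, STAR 2.7.9a, featureCounts (Subread 1.6.0), edgeR 3.40.0 and build mm39 were used. The sources used here name neither the annotation nor how strand was counted. Reads of a gene and of one that overlaps it on the other strand therefore cannot be told apart. Per the labels' protocols, 1 µg of total RNA went into each NEBNext Ultra library. The CPM steps gave whole reads for 100% of values (within 0.01).

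Genes averaging 1 CPM or more over the libraries were tested with limma 3.58.1 (trend, robust) on log2(CPM + 1) in R 4.3.3, Naringin against Control, 2-sided. Benjamini-Hochberg adjustment ran over all 14873 genes, at a threshold of 0.05. Alternatives were DESeq2 1.42.0 and the quasi-likelihood test of edgeR 4.0.16 with TMM, both on the recovered reads, a replicate block, leaving out each library, and other filters, scalings and pseudocounts. Simulated reads served to check the fits. The genes and lists were chosen with earlier results of these data known. Values in every library are given for genes with groups apart or an unadjusted p under 0.05, the smallest p per role, and the 2 enzymes and 2 HIF targets with the highest means; of the wider list, those with such a p and the 3 smallest p per direction are named. Exon lengths came from GENCODE M21, with a length for 93.8% of tested genes and for all 34 members.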

Additional observations from a re-analysis of the deposited data

How the results depend on the processing

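The number of the 34 genes past the adjusted threshold was 0 under all 18 alternatives. The filter at a mean of 5 CPM tested only 31 of them, without Adm, Egln3 and Aldoc. Over all genes tested the number past the threshold was 0, except 3 with DESeq2 and 1 without Control 3. The enzymes' median log2 fold of -0.02 ranged from -0.08 to 0.11 when single libraries were left out, and that of the HIF targets, 0.07, from -0.02 to 0.13. The difference between both medians, -0.09, ranged from -0.21 without Control 2 to 0.045 without Control 3; the cause was not tested. Without Control 3, signs turned in 11 of the 34. Among the 11 genes given in every library by rule, directions turned in Egln1 (0.0051 without Control 1; range without single libraries -0.10 to 0.0051), Gapdh (0.17 without Control 3; -0.17 to 0.17), Pkm (0.082 without Control 3; -0.14 to 0.082) and Ndrg1 (-0.020 with upper-quartile scaling, -0.00038 with DESeq2, -0.029 with gene-length correction; -0.084 to 0.085 without single libraries). Adm had an unadjusted p under 0.05 without Control 1. Upper-quartile scaling and DESeq2 each left 16 of the 34 with higher means. Cxcr4 passed in limma without Control 3 (log2 fold 1.05, adjusted p = 0.00993). With the replicate block, 157 genes had an unadjusted p under 0.05, against 213, 0 were called, and the medians stayed at -0.02 and 0.07 and their difference at -0.09. The numbers were not taken as pairs, because the labels tie them to no shared animal, litter or day. Deviations of libraries with the same number correlated at -0.26, -0.02 and -0.27, and those of unlike numbers at -0.13 to 0.31. With 3 libraries a group, the interval on the log2(CPM + 1) scale lay within 1.5-fold for 26 of the 34 genes.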
